A study of Mus musculus with 6 samples.

Results

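Gene expression of the cholesterol synthesis pathway and of its control by SREBP2 was examined in RAW264.7 cells, a macrophage-like mouse line established by transformation with Abelson leukaemia virus. The members are the 28 genes of a fixed list, matched by gene symbol to the 55401 genes of the deposited count table, and all 28 were found. The series compares cells given molybdenum disulfide (MoS2), a layered metal sulfide, at 6.25 µg/ml, with cells given phosphate-buffered saline (PBS). All 6 libraries, 3 per group, are labelled wild type, and the comparison asks how the transcriptome differs with MoS2. Neither the length of the exposure nor whether the replicates were separate cultures is given in the sources used here, so the p-values reflect variation among these libraries alone, and that variation may be technical.

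Cells make cholesterol from acetyl-CoA through mevalonate, isoprenoid diphosphates, squalene and lanosterol, and a branch of the same route supplies farnesyl and geranylgeranyl groups for protein prenylation. The transcription factor SREBP2, encoded by Srebf2, switches on nearly all of these enzymes when the endoplasmic reticulum is poor in sterol. When sterol is plentiful, INSIG proteins hold the escort protein SCAP together with SREBP2 in the endoplasmic reticulum, so SREBP2 is not cut and does not reach the nucleus. Macrophages, which take up lipoproteins and dead cells, also store cholesterol as esters and release it again.

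Scaled by TMM, a method described below, the pathway did not move as a block. Scaled by library totals, 22 of 27 tested members were called lower and 2 higher, beside 67.7% and 18% of all tested genes. Hmgcs1, Idi1, Sc5d, Acat2, Sqle and Hsd17b7, 6 enzymes spread from the first step to the late sterol steps, were lower in MoS2 than in PBS cells, while Ggps1, which makes geranylgeranyl diphosphate, and Insig1, the sterol-sensing brake of SREBP2, were higher. These 8 genes kept their direction and their call in all 16 alternative analyses, but the rises of Ggps1 and Insig1 do not appear as TPM, a scale described with the summed levels. With TMM, Hmgcs1 had the largest fall, with a level 2.29 times lower in MoS2 cells, and Ggps1 the largest rise, 2.38-fold. Ch25h had no count in any library.

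A gene was called when edgeR's quasi-likelihood test gave a Benjamini-Hochberg adjusted p under 0.05 over all 12972 genes that passed the low-count filter. Of the 28 members 27 were tested, and 23 were called, 12 higher and 11 lower. This share, 85.2%, stood beside 80.7% of all tested genes called in either direction, of which 38.3% were higher and 42.4% lower, so the number of calls does not set the members apart. With TMM, 3 members, Hmgcs1, Ggps1 and Insig1, changed by 1 or more on the log2 scale, or 11.1% of tested members, against 43.6% of all tested genes. By direction, 2 members were higher by that much and called, beside 19.5% of all tested genes, and 1 was lower, beside 23.7%. The middle 50% of members lay between log2 fold changes of -0.38 and 0.37, and that of all tested genes between -0.95 and 0.75. In 24 members the libraries of the groups did not overlap, 12 higher and 12 lower, beside 81.9% of all tested genes, of which 38.8% were higher and 43.1% lower. The median log2 fold change was 0.13 for the members and -0.08 for all tested genes.

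The direction of many members depended on how libraries were scaled. Levels are given as CPM, the library-normalised read count, scaled by TMM, a method that assumes most genes to be unchanged. The 10 most abundant genes took 19.0% to 19.6% of all counts in MoS2 libraries and 5.25% to 5.64% in PBS libraries, and their part in the results was not tested. Scaled by library totals alone, log2 fold changes were lower by a median of 0.77, and the members then had 2 called higher and 22 called lower, beside 18% of all tested genes higher and 67.7% lower (85.7% in all). Libraries then did not overlap for 2 members that were higher and 22 that were lower, beside 18.3% and 68.3% of all tested genes (86.6% in all). A log2 change of 1 or more was then reached by 10 members, all lower, or 37% of those tested, beside 52.4% of all tested genes, and Ggps1 and Insig1 were no longer among them. With totals, 12 members took the opposite sign, namely Acat1, Mvk, Pmvk, Mvd, Fdft1, Lss, Cyp51, Tm7sf2, Msmo1, Nsdhl, Ebp and Dhcr7. The sum of the 20 synthesis enzymes, with Acat1 and Ggps1 included, shows the same dependence. It averaged 1103 ± 36.5 CPM in MoS2 cells and 1043 ± 27.6 CPM in PBS cells with TMM (SD, n = 3 each), but 514 ± 16.3 TPM in MoS2 cells and 1096 ± 27.3 TPM in PBS cells. The mitochondrial thiolase gene Acat1 alone averaged 178.5 CPM in MoS2 cells and 116 CPM in PBS cells with TMM. Ggps1, on the prenylation branch, averaged 44.2 CPM in MoS2 cells and 18.6 CPM in PBS cells. The TMM sum is thus no measure of the cholesterol enzymes alone. TPM, the length-normalised share of transcripts, divides counts by gene length and makes every library sum to the same total, without TMM. Changes of all tested genes were not computed as TPM, so lower TPM cannot be read as particular to the members.

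**Figure D1:**
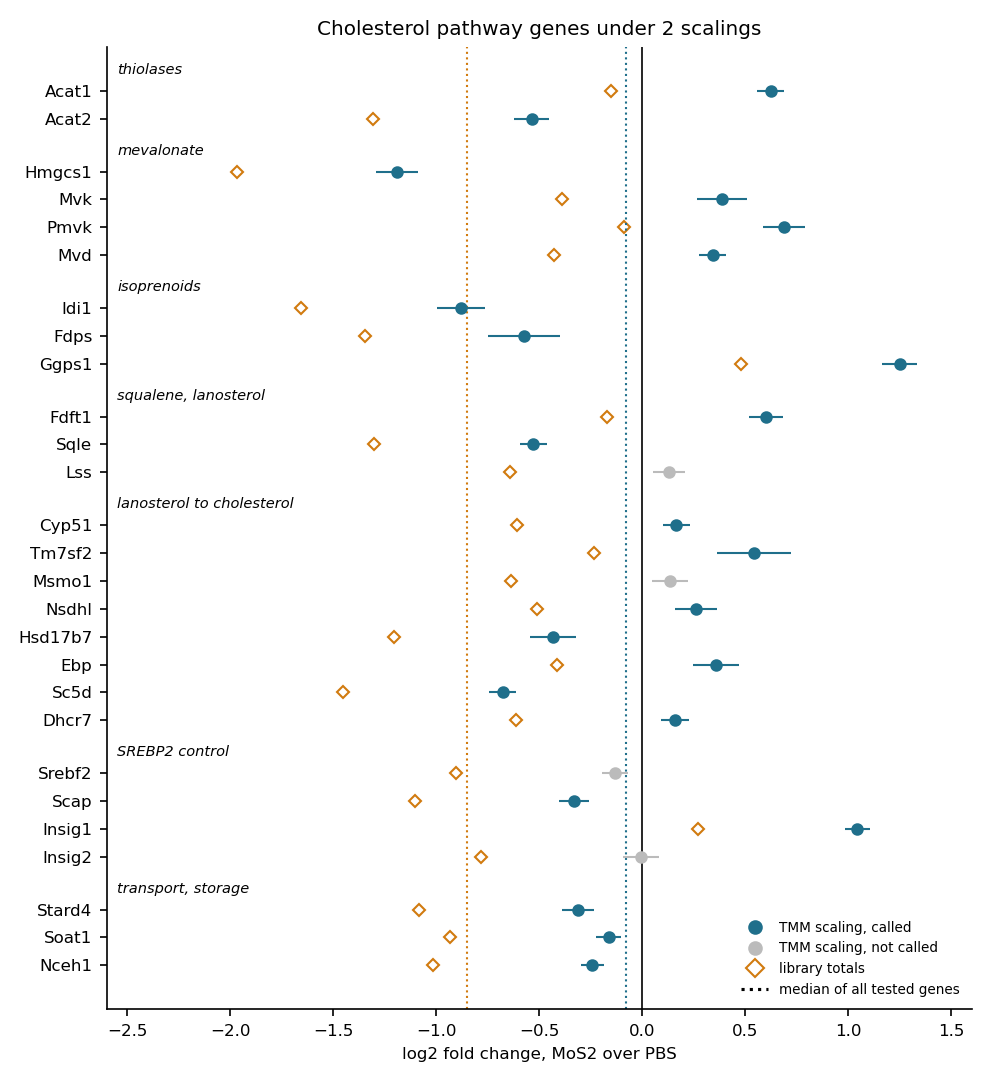
Log2 fold change (MoS2 over PBS) of the 27 tested members in pathway order. Circles with approximate standard errors are TMM-scaled, blue where called, diamonds are scaled by library totals, and dotted lines mark the median of all tested genes at -0.08 and -0.85. Ggps1 and Insig1 lie above 0 under both scalings, and Hmgcs1 lies farthest below 0.

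**Figure D2:**
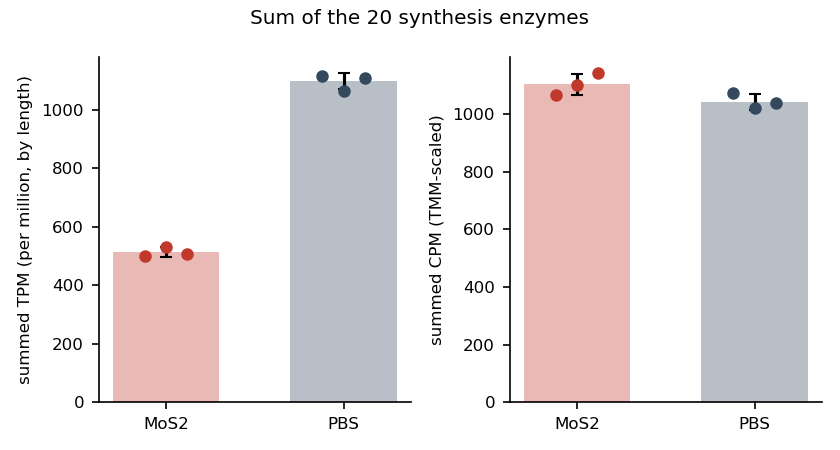
Sum of the 20 synthesis enzymes, Acat1 and Ggps1 included, in each library, as TPM on the left and as TMM-scaled CPM on the right. Points are libraries, bars are means and error bars are SD (n = 3). In TPM the MoS2 libraries lie between 501 and 532 and the PBS libraries between 1065 and 1115, while in TMM-scaled CPM the groups overlap.

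With TMM, the thiolases that join 2 acetyl-CoA molecules went in opposite directions, but with library totals both were called lower. Acat2, the cytosolic enzyme that feeds sterol synthesis (ENSMUSG00000023832.14, GRCm38 chromosome 17, 12942890 to 12960747), had 24.0, 27.9 and 27.6 CPM in MoS2 cells, against 38.5, 37.8 and 39.0 CPM in PBS cells. All MoS2 libraries lay below all PBS libraries, and the log2 difference was -0.54 ± 0.09 (SE; edgeR adjusted p = 5.1e-05). Acat1, the mitochondrial enzyme of ketone body and isoleucine metabolism, had 168.7, 178 and 188 CPM in MoS2 cells, against 119.5, 116 and 112 CPM in PBS cells. Its log2 fold change of 0.62 ± 0.06 (edgeR adjusted p = 6.8e-07) became -0.15 with library totals (edgeR adjusted p = 0.038). No direction can thus be given for Acat1, while Acat2 had -1.31 with library totals. The ratio of Acat1 to Acat2 within a library needs no scaling between libraries. Per base of gene length it was 4.77, 4.33 and 4.63 in MoS2 cells, against 2.1, 2.08 and 1.96 in PBS cells. The ratio was 2.24 times as high in MoS2 cells, with no overlap, and the exact two-sided permutation test gave p = 0.1, the smallest that 3 against 3 libraries allow (adjusted p = 0.15 over the 6 ratios tested). Counts of Acat2 carry some uncertainty, because 1477 aligned bases of its transcript are 97.7% identical to Acat3 and 445 are 98.7% identical to a stretch of Tcp1. Over all libraries Acat2 had 3646 counts, Acat3 38 and the far more abundant Tcp1 34504. Their effect on the Acat2 change was not tested.

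Of the 4 members on the way to mevalonate and from it to isopentenyl diphosphate, the first fell. The other 3 were called higher with TMM, a direction that library totals turned. Hmgcs1, the cytosolic HMG-CoA synthase (ENSMUSG00000093930.2, GRCm38 chromosome 13, 119690379 to 119708260), had 31.5, 32.2 and 36.0 CPM in MoS2 cells, against 86.3, 65.5 and 76.3 CPM in PBS cells. Its log2 fold change was -1.19 ± 0.10 (edgeR adjusted p = 8.6e-08), and -1.97 with library totals. The kinases Mvk and Pmvk, which phosphorylate mevalonate in turn, had log2 fold changes of 0.38 ± 0.12 and 0.69 ± 0.10 (edgeR adjusted p = 0.0098 and 3.1e-05). Mvd, whose decarboxylase makes isopentenyl diphosphate, had 0.34 ± 0.07 (edgeR adjusted p = 0.00028). With library totals these 3 had -0.39, -0.09 and -0.43, and Pmvk was no longer called. Mvk was also no longer called without PBS replicate 3 (log2 fold change 0.24, edgeR adjusted p = 0.059). Hmgcs1 against Mvk, per base, was 0.811, 0.872 and 0.946 in MoS2 cells, and 2.66, 2.11 and 3.23 in PBS cells. In words, Hmgcs1 exceeded Mvk in each PBS library and lay under it in each MoS2 library, a 3.0-fold lower ratio (exact permutation p = 0.1, adjusted p = 0.15).

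Isoprenoid building held both the second largest fall and the largest rise. Idi1, which isomerises isopentenyl diphosphate (ENSMUSG00000058258.14, GRCm38 chromosome 13, 8885501 to 8892451), had 13.2, 15.8 and 16.8 CPM in MoS2 cells, against 30.6, 25.2 and 28.6 CPM in PBS cells, a log2 difference of -0.88 ± 0.11 (edgeR adjusted p = 7.3e-06). Reads of its processed pseudogene Gm13502, identical over 684 bases, are hard to separate from it, and that copy had 30 counts in all. Fdps, which makes farnesyl diphosphate, had 3.83, 4.62 and 4.32 CPM in MoS2 cells, against 6.81, 5.56 and 6.65 CPM in PBS cells. Both genes had no overlap between groups. The Fdps change of -0.57 ± 0.17 (edgeR adjusted p = 0.0078) was not called once a trend on length and GC content of genes was removed (-0.36, adjusted p = 0.068). Its low level is uncertain, since 26.7% of its counted length also belongs to the gene model Gm43738 on the same strand, which had 0 counts. Ggps1 (ENSMUSG00000021302.10, GRCm38 chromosome 13, 14050659 to 14063488) extends farnesyl to geranylgeranyl diphosphate, the lipid that anchors Rab proteins in membranes. It had 45.0, 41.7 and 45.9 CPM in MoS2 cells, against 17.8, 18.5 and 19.5 CPM in PBS cells, a log2 difference of 1.25 ± 0.08 (edgeR adjusted p = 7.9e-09). With library totals Ggps1 still had 0.48 and remained called.

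Farnesyl diphosphate can go to geranylgeranyl diphosphate through Ggps1 or to squalene through Fdft1, the squalene synthase. Fdft1 had 76.6, 81.5 and 76.0 CPM in MoS2 cells, against 57.0, 50.6 and 46.7 CPM in PBS cells, a log2 difference of 0.60 ± 0.08 (edgeR adjusted p = 1.1e-05) that became -0.17 and was not called with library totals. Its counts are uncertain because 18.8% of its length overlaps the far more abundant Ctsb on the other strand, which itself had a log2 difference of 1.12. The ratio of Ggps1 to Fdft1 was 0.512, 0.447 and 0.527 in MoS2 cells, and 0.272, 0.319 and 0.364 in PBS cells. The groups did not overlap, and the ratio was 1.56 times as high in MoS2 cells (exact permutation p = 0.1, adjusted p = 0.15).

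Sqle, the squalene epoxidase and a flux-controlling step (ENSMUSG00000022351.14, GRCm38 chromosome 15, 59315077 to 59331192), had 78.7, 86.5 and 83.0 CPM in MoS2 cells, against 120.9, 115 and 122 CPM in PBS cells. Its log2 fold change was -0.53 ± 0.06 (edgeR adjusted p = 4.0e-06). Lss, which closes the ring to lanosterol, had 0.13 ± 0.08 and was not called (edgeR adjusted p = 0.14). Lss was called lower with library totals (-0.64) and higher with the length and GC trend removed (0.52, edgeR adjusted p = 8.6e-07), so no direction can be given. Libraries of the groups did not overlap for either gene, with Sqle lower and Lss higher in MoS2 cells under TMM.

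Of the 8 genes that turn lanosterol into cholesterol, 5 were called higher and 2 lower with TMM, beside 38.3% of all tested genes higher and 42.4% lower, and 7 were lower with library totals, beside 67.7%. The falls were in Sc5d, the lathosterol oxidase (ENSMUSG00000032018.14, GRCm38 chromosome 9, 42251595 to 42264256), and in Hsd17b7, the ketosteroid reductase of methyl removal (ENSMUSG00000026675.12, GRCm38 chromosome 1, 169949535 to 169969241). Sc5d had 43.8, 44.7 and 45.6 CPM in MoS2 cells, against 71.8, 70.7 and 72.2 CPM in PBS cells, a log2 difference of -0.68 ± 0.07 (edgeR adjusted p = 4.4e-07). Hsd17b7 had 17.8, 23.0 and 18.1 CPM in MoS2 cells, against 24.97, 26.2 and 28.4 CPM in PBS cells, a log2 difference of -0.43 ± 0.11 (edgeR adjusted p = 0.0026). MoS2 and PBS libraries did not overlap for either gene.

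Among the partners of Hsd17b7 in methyl removal, Msmo1 averaged 123 ± 9.53 CPM in MoS2 cells and 112 ± 12.8 CPM in PBS cells and was not called (SD, n = 3 each), but was called lower with library totals (-0.64) and higher with the length and GC trend removed (0.32, edgeR adjusted p = 0.0022). Nsdhl had a log2 difference of 0.26 ± 0.10 (edgeR adjusted p = 0.029). The lanosterol demethylase Cyp51 and Dhcr7, which completes cholesterol, had 0.16 ± 0.07 each, with edgeR adjusted p of 0.034 and 0.043. These 3 small changes lost their call in at least 8 of 16 alternatives each. Ebp, the sterol isomerase, had 0.36 ± 0.11 and the reductase gene Tm7sf2 0.54 ± 0.18 (edgeR adjusted p = 0.0087 and 0.013). Ebp was not called without PBS replicate 3 (0.26, edgeR adjusted p = 0.054), nor Tm7sf2 without MoS2 replicate 3 (0.37, edgeR adjusted p = 0.085). The groups overlapped for Tm7sf2, which also shares 12.1% of its length with Vps51 on the same strand. With library totals Cyp51, Nsdhl, Ebp, Dhcr7 and Tm7sf2 had -0.61, -0.51, -0.42, -0.61 and -0.24.

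**Figure D3:**
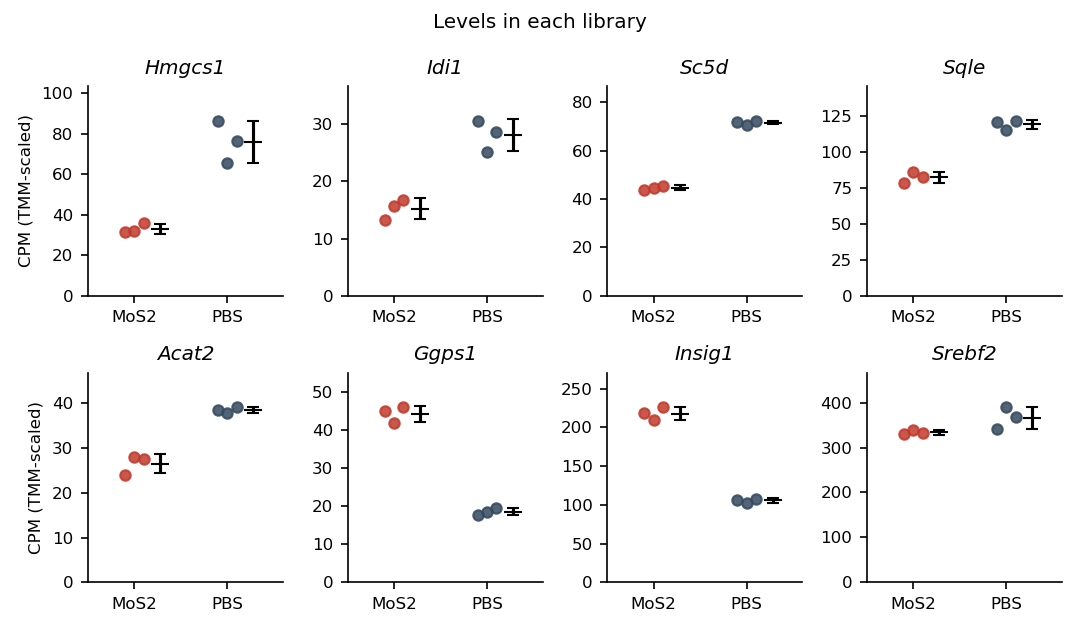
TMM-scaled CPM of 8 members in each library, with points for libraries and mean and SD (n = 3) at the side. Hmgcs1, Idi1, Sc5d, Sqle and Acat2 are lower in all MoS2 libraries, Ggps1 and Insig1 are higher in all MoS2 libraries, and Srebf2 lies at 331 to 339.7 CPM in MoS2 and 340.4 to 389 CPM in PBS libraries.

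With TMM the SREBP2 control genes differed most at Insig1, but with library totals Insig1 changed least of these genes. Insig1 (ENSMUSG00000045294.11, GRCm38 chromosome 5, 28071363 to 28078662), itself a known SREBP2 target, had 218, 209.9 and 226 CPM in MoS2 cells, against 107, 102 and 108 CPM in PBS cells. Its log2 fold change was 1.04 ± 0.06 (edgeR adjusted p = 1.8e-09), and 0.27 with library totals, still called (edgeR adjusted p = 8.0e-04). As TPM, however, Insig1 lay at 125 to 128 in MoS2 libraries, below the 139.5 to 151 of PBS libraries. Insig2, the second INSIG, which is not driven by SREBP2 in the same way, had 27.8, 31.6 and 33.4 CPM in MoS2 cells, against 30.7, 31.6 and 31.0 CPM in PBS cells. Its groups overlapped and its log2 fold change was -0.01 ± 0.09 with TMM (edgeR adjusted p = 0.94), but -0.78 and called with library totals. The ratio of Insig1 to Insig2 was 8.81, 7.46 and 7.59 in MoS2 cells, against 3.91, 3.65 and 3.90 in PBS cells. It was 2.08 times as high in MoS2 cells, without overlap (exact permutation p = 0.1, adjusted p = 0.15).

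Srebf2 had 331, 339.7 and 331 CPM in MoS2 cells, against 340.4, 389 and 368 CPM in PBS cells. Its log2 fold change of -0.13 ± 0.06 was not called (edgeR adjusted p = 0.071), although the groups did not overlap. It was called at -0.90 with library totals and at 0.48 with the length and GC trend removed, so no direction can be given. Scap, the escort of SREBP2, had 49.4, 46.0 and 43.5 CPM in MoS2 cells, against 58.7, 57.1 and 59.0 CPM in PBS cells, a log2 difference of -0.33 ± 0.07 (edgeR adjusted p = 0.00091). Scap was called lower with library totals (-1.10) and higher with the length and GC trend removed (0.34, edgeR adjusted p = 0.00026). No direction can thus be given for Scap either. The ratio of Scap to Srebf2 overlapped between groups (log2 difference -0.20, exact permutation p = 0.2, adjusted p = 0.24).

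With TMM, the 3 tested genes of sterol transport and storage were slightly lower. Stard4, a sterol carrier of the cytosol, averaged 47.7 ± 1.68 CPM in MoS2 cells and 59.2 ± 4.73 CPM in PBS cells (SD, n = 3 each), a log2 difference of -0.31 ± 0.08 (edgeR adjusted p = 0.0023). Nceh1, which hydrolyses cholesteryl esters, had -0.24 ± 0.06 (edgeR adjusted p = 0.0016), and Soat1, which forms them, -0.16 ± 0.06 (edgeR adjusted p = 0.024). MoS2 libraries lay below PBS libraries for all 3 genes. With library totals Stard4, Nceh1 and Soat1 had -1.085, -1.015 and -0.935, all called lower, beside 67.7% of all tested genes. With the length and GC trend removed Stard4 had -0.16, at the threshold (edgeR adjusted p = 0.05 as rounded). Nceh1 was not called once that trend was removed (-0.10, edgeR adjusted p = 0.1). The Soat1 call was lost in 7 of the 16 alternatives and its sign turned to 0.10 with the length and GC trend removed. The ratio of Soat1 to Nceh1 was 0.824, 0.881 and 0.861 in MoS2 cells, and 0.760, 0.825 and 0.844 in PBS cells, with overlap (exact permutation p = 0.3, adjusted p = 0.3). The difference of that log2 ratio was 0.08, with SD of 0.05 in MoS2 cells and 0.08 in PBS cells. Ch25h, the hydroxylase that makes an oxysterol inhibitor of SREBP2 processing, had 0 counts in each library. The limit that a count of 0 allows, 3 counts, corresponds to 0.219 to 0.243 CPM in MoS2 libraries and 0.130 to 0.135 CPM in PBS libraries.

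**Figure D4:**
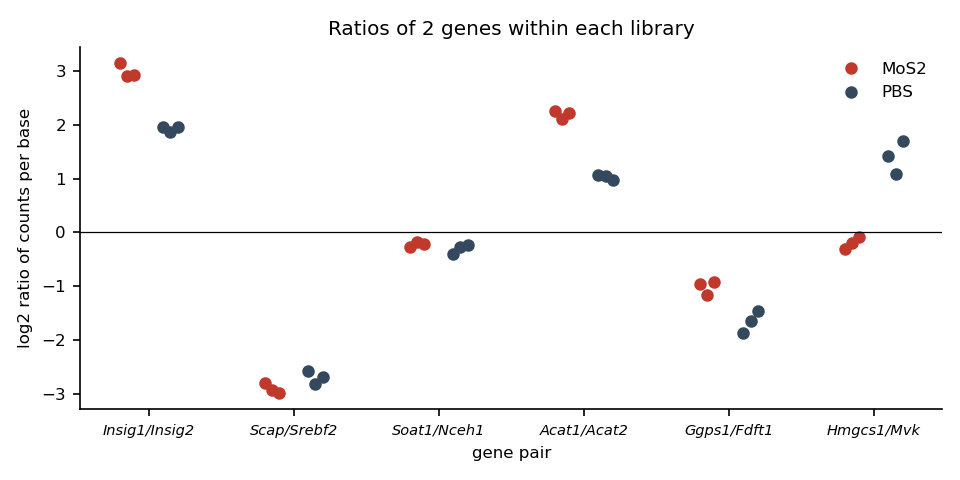
Log2 ratio of counts per base between 2 genes within each library, for the 6 pairs tested, with MoS2 left of PBS in each pair. The groups are apart for Insig1/Insig2, Acat1/Acat2, Ggps1/Fdft1 and Hmgcs1/Mvk and overlap for Scap/Srebf2 and Soat1/Nceh1.

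Levels between genes were compared as TPM. In MoS2 cells Insig1 ranked first, at 127 ± 1.65 TPM, above Acat1 at 85.7 ± 3.93, Srebf2 at 83.9 ± 5.02 and Mvd at 80.2 ± 2.11 TPM, while in PBS cells Srebf2 ranked first, at 217 ± 15.9 TPM, above Mvd at 149 ± 2.89, Insig1 at 145 ± 6.02 and Nceh1 at 138 ± 3.40 TPM (SD, n = 3 each). Within these orders, Acat1, Srebf2 and Mvd overlapped in MoS2 cells, as did Mvd, Insig1 and Nceh1 in PBS cells. Hmgcs1 ranked 21 in MoS2 cells, at 13.0 ± 0.52 TPM, and 10 in PBS cells, at 70.3 ± 9.49 TPM. Ggps1 ranked 16 in MoS2 cells and 25 in PBS cells, and its TPM overlapped between groups, at 16.9 ± 0.37 in MoS2 cells and 16.8 ± 1.14 in PBS cells. Sc5d ranked 17 in MoS2 cells, at 16.6 ± 0.66 TPM, and 12 in PBS cells, at 62.5 ± 1.86 TPM. The least abundant detected members were Tm7sf2, at 3.93 ± 0.80 TPM in MoS2 cells and 6.42 ± 0.50 TPM in PBS cells, and Fdps, at 1.83 ± 0.22 TPM in MoS2 cells and 6.41 ± 0.73 TPM in PBS cells.

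**Figure D5:**
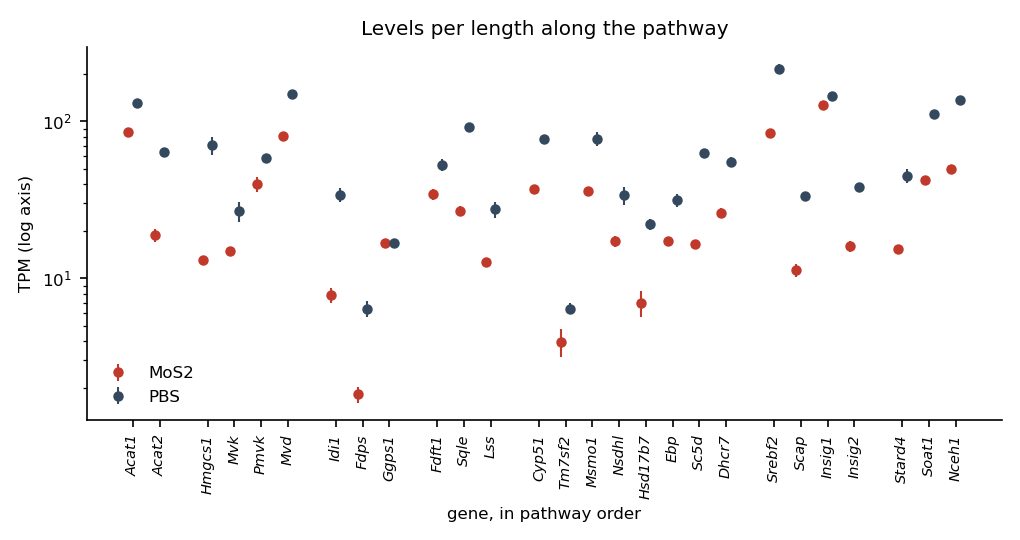
Mean TPM of the 27 detected members in pathway order on a log axis, with SD (n = 3), MoS2 left of PBS. Ggps1 lies at the same level in both groups, near 17 TPM, and the other members have lower means in MoS2 cells on this scale, which is not TMM-scaled. The share of all tested genes with lower TPM was not computed.

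The promoters of the members with the largest changes are shown because the pathway is controlled through them. SREBP2 binds sterol regulatory elements and acts with NF-Y, which binds CCAAT boxes, and with Sp1, which binds GC boxes. Each line gives the 250 bases before the RefSeq start on GRCm38.p6, 5′ to 3′ on the gene's strand, for Hmgcs1 (chr13:119690101-119690350, plus strand), Idi1 (chr13:8885356-8885605, plus strand), Ggps1 (chr13:14063489-14063738, minus strand) and Insig1 (chr5:28071162-28071411, plus strand). Capitals mark matches on either strand to a sterol regulatory element (TCACNCCAC), a CCAAT box (CCAAT) and a GC box (GGGCGG), which do not overlap here.
Hmgcs1: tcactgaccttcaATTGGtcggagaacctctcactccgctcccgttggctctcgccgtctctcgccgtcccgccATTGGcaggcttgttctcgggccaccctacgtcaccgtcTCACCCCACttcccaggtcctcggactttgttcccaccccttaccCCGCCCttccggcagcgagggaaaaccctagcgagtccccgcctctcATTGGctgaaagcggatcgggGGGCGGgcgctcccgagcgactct
Idi1: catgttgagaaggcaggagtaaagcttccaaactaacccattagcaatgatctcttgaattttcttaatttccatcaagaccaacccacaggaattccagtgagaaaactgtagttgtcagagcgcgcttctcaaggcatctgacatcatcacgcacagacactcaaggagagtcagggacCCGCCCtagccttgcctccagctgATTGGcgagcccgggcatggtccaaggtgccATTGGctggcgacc
Ggps1: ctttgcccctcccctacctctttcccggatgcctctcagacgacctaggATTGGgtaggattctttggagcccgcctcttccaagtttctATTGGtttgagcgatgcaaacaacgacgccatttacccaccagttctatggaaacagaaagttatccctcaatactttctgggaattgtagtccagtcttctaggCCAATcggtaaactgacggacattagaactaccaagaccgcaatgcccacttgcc
Insig1: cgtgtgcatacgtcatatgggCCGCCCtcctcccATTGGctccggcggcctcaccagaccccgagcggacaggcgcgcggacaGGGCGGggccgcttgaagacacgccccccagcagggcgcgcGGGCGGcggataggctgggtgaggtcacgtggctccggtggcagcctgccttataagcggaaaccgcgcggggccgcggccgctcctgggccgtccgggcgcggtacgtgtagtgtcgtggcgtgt

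The Hmgcs1 window holds the sterol regulatory element, starting 137 bases before the start, with 3 CCAAT boxes and 2 GC boxes. The Idi1 window has 2 CCAAT boxes and 1 GC box, that of Insig1 has 1 CCAAT box and 3 GC boxes, and that of Ggps1 has 3 CCAAT boxes and no GC box. RefSeq windows were at hand for 23 of the 28 members. A CCAAT box occurred in 20 of these 23 members (87.0%), against 37.5% of all 27025 genes with a window, and a GC box in 18 (78.3%), against 35.4% of all genes. The exact sterol element letters occurred in 1 member, Hmgcs1 (4.35%), against 1.22% of all genes. The background holds all genes with a window, tested here or not, and shares among tested genes were not computed. A gene counted when any of its windows matched. These matches describe letters and not bound sites, and sterol elements with other letters were not searched. Among the members with a window, Acat2 and Scap held a GC box but no CCAAT box, and Pmvk, Ggps1, Soat1 and Nceh1 a CCAAT box but no GC box.

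Other genes of the pathway, 69 in all, came from a list with 7 classes. Of the 63 tested, 29 were called higher and 28 lower, beside 38.3% of all tested genes higher and 42.4% lower (80.7% in all), and the median log2 fold change was 0.11. With library totals 11 were higher and 46 lower, beside 18% and 67.7% of all tested genes. The counts in its classes are descriptions, to be read against the same shares. Of the 16 tested genes of SREBP processing and sterol-regulated protein turnover, 6 were higher and 8 lower. The sterol-regulated ubiquitin ligase gene Rnf145 averaged 26.2 ± 2.28 CPM in MoS2 cells and 144 ± 2.59 CPM in PBS cells, and Srebf1, which encodes the fatty acid-oriented SREBP1, 74.8 ± 4.12 CPM in MoS2 cells and 209.9 ± 9.10 CPM in PBS cells (SD, n = 3 each). Their log2 fold changes were -2.46 ± 0.08 and -1.49 ± 0.07 (edgeR adjusted p = 4.6e-12 and 1.5e-10). Erlin2, which takes part in the turnover of INSIG1, had -1.72 ± 0.10. These falls were larger than those of the members.

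Of 6 tested genes of sterol uptake and of further sterol synthesis steps, 5 were lower and 1 higher. The lipoprotein receptor ligase gene Mylip and the sterol reductase and nuclear lamina receptor gene Lbr had -3.01 ± 0.17 and -0.89 ± 0.07 (edgeR adjusted p = 9.5e-10 and 2.4e-08). Of 8 redox partners of sterol enzymes, 5 were higher and 2 lower. Por, which passes electrons to Cyp51 and Sqle, averaged 497 ± 4.44 CPM in MoS2 cells and 188 ± 9.14 CPM in PBS cells, and Cyb5a, the electron donor of Sc5d and Msmo1, 97.6 ± 2.72 CPM in MoS2 cells and 50.5 ± 1.78 CPM in PBS cells. Both stayed higher with library totals, at 0.63 and 0.18. Erg28, a scaffold of the demethylation enzymes in yeast, had -1.44 ± 0.12 (edgeR adjusted p = 1.1e-07). Of 4 genes of acetyl-CoA supply, 3 were higher, with citrate synthase Cs at 1.18 ± 0.06, the citrate carrier Slc25a1 at 0.88 ± 0.08 and acetyl-CoA synthetase Acss2 at 0.74 ± 0.08, but with library totals Slc25a1 and Acss2 were not called (0.11 and -0.03).

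Prenylation and isoprenoid use, a class wider than the use of the Ggps1 product, had 8 of 14 genes higher and 6 lower. Rabggtb, the catalytic subunit that attaches geranylgeranyl to Rab proteins, averaged 163 ± 8.76 CPM in MoS2 cells and 36.6 ± 5.00 CPM in PBS cells, a log2 difference of 2.15 ± 0.09 (edgeR adjusted p = 7.8e-11). Nus1, a subunit of the dolichol-forming enzyme, had 1.21 ± 0.07, and Zmpste24, the protease that matures farnesylated prelamin A, -1.02 ± 0.07. Of 14 tested genes of sterol transport and ester hydrolysis, 6 were higher and 6 lower. The sterol carrier Gramd1a of the endoplasmic reticulum had 1.82 ± 0.06 and the lysosomal sterol carrier Npc2 1.42 ± 0.07, while lysosomal acid lipase Lipa had -1.17 ± 0.06, all with edgeR adjusted p of at most 6.3e-10. Of the oxysterol enzymes 1 of 5 was tested, and this gene, Cyp27a1, the mitochondrial sterol hydroxylase, had -1.14 ± 0.09 (edgeR adjusted p = 3.8e-08).

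Total counts ran from 15767618 to 18412762 in MoS2 libraries and from 17008020 to 17695883 in PBS libraries. Macrophage markers were present, with Lyz2 at 1980 CPM in MoS2 and 3620 CPM in PBS cells and Cd68 at 1300 CPM in MoS2 and 614 CPM in PBS cells on average, except Mertk, which had 4 counts in all. The 10 macrophage markers summed to 5200 to 5450 CPM in MoS2 libraries and 7660 to 7840 CPM in PBS libraries. No marker of fibroblasts, epithelium, T cells, B cells, endothelium, neutrophils or hepatocytes exceeded 1 CPM in any library. In bulk RNA, fewer cells with a transcript and less of it per cell cannot be told apart.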

How the data were processed

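For 6 libraries the authors deposited raw gene-level counts, without any scaling. The tools named in the submitters' processing notes are HISAT2 2.1.0, featureCounts 1.6.1 and fastp 0.20.0. How multi-mapping reads and strand were handled is not stated. The notes name GRCh38, a human build, but the identifiers are mouse, and 54349 of 55401 match GENCODE M21 (GRCm38) in version and coordinates. Columns were matched to samples by letter and number.

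The fit used edgeR 4.0.16 (R 4.3.3) quasi-likelihood F tests on all 6 libraries, with treatment as the only term, TMM factors and the default low-count filter. Fold changes are MoS2 over PBS (prior count 0.125), and the SE, which is approximate, divides each log2 fold change by the root of its F. The fitting code was also run on simulated counts, whose outcome is not reported here. TPM was computed from the deposited counts and gene lengths. Ratios were tested over libraries with exact permutation (scipy 1.17.1). Alternatives were DESeq2 1.42.0, limma-voom (limma 3.58.1), other scalings and filters, a replicate block, a length and GC correction and each library left out.

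All 28 members were named, and of each class of the pathway list the 3 genes with the smallest adjusted p, of which 1 is not reported here. Members and lists were chosen with earlier results of these data known. The 250-base promoter windows come from RefSeq.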

Additional observations from a re-analysis of the deposited data

How the results depend on the processing

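Of 432 member values over 16 alternatives, 359 kept direction and side of the threshold, 47 lost the call, 8 gained it and 18 changed sign. With library totals, members called were 2 higher and 22 lower, other pathway genes 11 and 46, and all tested genes 2334 and 8786, and 2 members lay above PBS without overlap and 22 below. TMM factors were 0.743 to 0.783 in MoS2 libraries and 1.305 to 1.31 in PBS libraries. Totals leave these factors out, which lowers MoS2 values relative to PBS values. Which scaling is right was not tested. Sign changes with totals were Acat1 (-0.15), Mvk (-0.39), Pmvk (-0.088), Mvd (-0.43), Fdft1 (-0.17), Lss (-0.64), Cyp51 (-0.61), Tm7sf2 (-0.24), Msmo1 (-0.64), Nsdhl (-0.51), Ebp (-0.42) and Dhcr7 (-0.61). Upper-quartile factors called 7 members higher (25.9% of those tested, beside 34.2% of all tested genes). A test against a fold of 1.2 called 6 higher and 7 lower (22.2% and 25.9%, beside 33.1% and 37.4% of all tested genes). Removing the length and GC trend called 7 lower (25.9%, beside 38.4%) and turned Srebf2 (0.48), Scap (0.34) and Soat1 (0.10); the cause was not tested. Insig2, not called, changed sign with RLE (0.0334), with DESeq2 (0.0333) and without MoS2 replicate 1 (0.066), and ran from -0.061 to 0.066 with 1 library left out. Leaving out 1 library gave 8 to 11 members higher and 10 to 12 lower. All tested genes, 13271 to 13457 in these fits, then had 4843 to 5070 higher and 5334 to 5564 lower. The replicate numbers did not pair the libraries (correlations of same-numbered deviations -0.14 to -0.01). A replicate block called 10 of 27 members higher and 10 lower, beside 4848 and 5355 of 12972 tested genes. The 6 ratio differences kept their sign with any 1 library left out. Depth limits Fdps, with 48 to 157 counts per library, and Ch25h, with none.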
